A study of Mus musculus with 8 samples.

Results

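The CCN matricellular family was followed in single-cell RNA sequencing (scRNA-seq) data from the long bones of 8 female mice. Its 5 members Ccn1, Ccn2, Ccn3, Ccn4 and Ccn5 were taken by symbol from the 32285 genes of the count matrices, and each had 1 row in all 8 libraries. The sixth gene of the family, Ccn6, is given only for reference. The mutant mice, SOXCOsxCre, carried floxed alleles of Sox4, Sox11 and Sox12 on both chromosomes and the OsxCre transgene. The control mice were sisters with the same Sox4fl/fl Sox11fl/fl Sox12fl/fl genotype and no Cre. Each genotype had 2 mice at 7 weeks and 2 at 13 weeks of age, with 1 library per mouse. Femurs and tibiae were scraped free of periosteum and flushed, the bones were digested, and haematopoietic cells were removed with magnetic beads before capture. OsxCre is active mainly in the osteoblast lineage and weakly in growth plate chondrocytes, and it was kept silent with doxycycline early in life. Because no control carried Cre, the effects of the transgene itself and of the SOXC deletion cannot be told apart.

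CCN proteins are secreted into the extracellular matrix, where they act as adaptors between integrins, heparan sulphate proteoglycans, growth factors and matrix proteins rather than as structural components. A typical member is built from an insulin-like growth factor binding module, a von Willebrand factor type C module, a thrombospondin type 1 module and a cystine-knot C-terminal module, and Ccn5 lacks the last. Ccn1 (formerly Cyr61) and Ccn2 (formerly Ctgf) are classical targets of the YAP and TAZ coactivators of TEAD transcription factors and respond within minutes to hours to serum, stretch and TGF-beta. Ccn2 is needed for growth plate cartilage to mature. Ccn3 (formerly Nov) is known as an antagonist of BMP signalling and of osteoblast differentiation, and Ccn4 and Ccn5 (formerly Wisp1 and Wisp2) were first described as genes induced by Wnt1.

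All members are protein-coding genes, located here on the mouse GRCm38 annotation. Ccn1 (ENSMUSG00000028195) lies at chr3:145646976-145649981 on the minus strand and Ccn2 (ENSMUSG00000019997) at chr10:24595442-24598683 on the plus strand. Ccn3 (ENSMUSG00000037362, chr15:54745702-54754039) and Ccn4 (ENSMUSG00000005124, chr15:66891320-66923201) lie on the plus strand of 1 chromosome, and Ccn5 (ENSMUSG00000027656) lies at chr2:163820861-163833146, also on the plus strand. Each of Ccn1 to Ccn4 has 5 coding exons, for 379, 348, 354 and 367 codons, whereas Ccn5, whose protein lacks the C-terminal module, has 4 coding exons and 251 codons. Of the 5 members, a promoter sequence was at hand only for Ccn1, the member most widely detected in these cells, and it is shown here. The 250 bases before its start (RefSeq, GRCm38.p6, chr3:145649986-145650235, minus strand, written 5′ to 3′) are given with capitals on the one match to the TEAD core GGAATG, which reads CATTCC on this strand.
Ccn1 promoter: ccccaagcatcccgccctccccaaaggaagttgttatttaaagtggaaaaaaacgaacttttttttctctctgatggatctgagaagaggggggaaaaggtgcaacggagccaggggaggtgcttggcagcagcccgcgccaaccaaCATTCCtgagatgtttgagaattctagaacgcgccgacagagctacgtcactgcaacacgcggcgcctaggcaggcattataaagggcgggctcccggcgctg
The match lay 103 bases before the start, and a TATAAA match lay 25 bases before it. Of 32851 promoters of the same length, 12.6% held GGAATG or CATTCC and 12.4% held TATAAA or TTTATA. The letters ACAAAG, a short form of the motif bound by SOX proteins, and their reverse CTTTGT were not in this window and were in 16.5% of all promoters. These matches describe letters and not binding sites, and the promoters of the other 4 members were not analysed here.

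The libraries held 12086 to 14151 barcodes and 81894604 to 156090286 UMIs, and 6410 to 8753 cells per library were kept. The replicate 1 libraries were deeper (median 11240 to 12940 UMIs per kept cell) than the replicate 2 libraries (7019 to 8042) at each age and genotype, so values are also given within a replicate number. Any 2 libraries shared 30 to 63 barcodes. Populations were named from marker lists as X-like cells, and 14 of them had enough cells to be tested. They included Lepr+ MSC-like cells (3899 cells, marrow mesenchymal stem cells), Lepr+ OP-like cells (2277, osteoprogenitors), preOB-like cells (2312, preosteoblasts), OB-like cells (24083, osteoblasts), GPC-like and hypertrophic GPC-like cells (2063 and 2584, growth plate chondrocytes), pericyte-like cells (984) and endothelial-like cells (3543). The clusters called Lepr+ OP-like and preOB-like were both led by osteoprogenitor markers and were parted by their Lepr+ MSC markers. Haematopoietic cells remained despite the sort and served as a background. Sox4, the deleted gene of highest level, stood at 367.4 to 450.0 CPM in control and 151.1 to 205.1 CPM in mutant Lepr+ MSC-like cells and fell by 1.29 on the log2 scale (adjusted p = 0.00649, edgeR), and every control library was above every mutant library.

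Each member had its own place among the cell types of control bones. Levels are UMIs summed per mouse and cell type, as TMM-normalised CPM (counts scaled to a common library size). TMM factors were fitted within each cell type and do not scale the types to each other. Levels of single clusters are CPM without TMM. Cell types are compared for 1 gene at a time because UMIs from 3′ ends do not allow levels to be compared between genes. Each level is the mean ± SD of 4 control mice, and neighbours are called apart only where the ranges over these mice did not overlap. These orders are descriptions without a test.

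Ccn1 was the broadest member. It was highest in Lepr+ MSC-like cells (1273 ± 121 CPM, SD, n = 4), followed by GPC-like (1094 ± 421) and Lepr+ OP-like cells (1089 ± 206), hypertrophic GPC-like cells (862 ± 392), preOB-like cells (839 ± 280), OB-like cells (641 ± 108), Proliferating preOB-like cells (625 ± 104), pericyte-like cells (474 ± 132), Sca1+ MSC-like cells (393 ± 146) and endothelial-like cells (264 ± 33.4). Neighbours in this order overlapped down to endothelial-like cells, and only the haematopoietic types, at 28.6 to 61.7 CPM, stood below with no overlap. The OB-like clusters were not alike. Their control means ran from 394 CPM in a cluster led by Ifitm5, Cadm1 and Bglap to 993 CPM in a cluster led by Ifitm5, Bglap and Bglap2.

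Ccn2 was a gene of chondrocytes and marrow stroma rather than of osteoblasts. Its level was highest in hypertrophic GPC-like (1157 ± 656 CPM) and GPC-like cells (930 ± 474), then in Lepr+ MSC-like cells (746 ± 166), osteoprogenitors of the Lepr+ OP-like population (558 ± 175) and preOB-like cells (517 ± 287), none of which stood apart from its neighbour. Sca1+ MSC-like (378 ± 356) and Proliferating preOB-like cells (272 ± 32.9) came next. Pericyte-like (108 ± 11.9) and endothelial-like cells (89.3 ± 21.7) formed a lower step, and OB-like cells (26.5 ± 9.46) stood below both without overlap. Within hypertrophic GPC-like cells, the cluster in which Col10a1 was among the 3 leading genes had 1422 CPM (805 to 2510) and the other 751 CPM (483 to 1234). Within OB-like cells, Ccn2 was highest in a cluster led by Ptprz1 and Pdpn (72.4 CPM, 53.3 to 88.5), the latter a gene of early osteocytes, and lowest in a cluster led by Bglap (11.8 CPM, 10.6 to 14.7).

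Ccn3 was scarce in every osteogenic population. It was found mainly in Sca1+ MSC-like (47.6 ± 28.7 CPM), endothelial-like (22.1 ± 16.4) and pericyte-like cells (11.8 ± 8.94), whose ranges overlapped, and in GPC-like cells at 2.66 ± 0.700 CPM. The Sca1+ MSC-like level rests on 20 to 53 cells per control mouse. Of these cells, 5 to 16% had a Ccn3 UMI, with 1.5 to 15 UMIs per positive cell. Mean levels were 0.0649 CPM in OB-like and 0.0986 CPM in preOB-like cells, and the Lepr+ MSC-like and OP-like means were 0.210 and 0.235 CPM. The vascular signal sat in particular clusters. Among endothelial-like cells it was 57.6 CPM (18.2 to 125.8) in the cluster led by Ptprb, Ly6c1 and Cldn5, against 15.9 CPM (8.65 to 23.3) and 4.24 CPM (2.18 to 8.24) in the clusters led by Gpihbp1 and by Fabp4. Among pericyte-like cells, the cluster led by the smooth muscle genes Acta2, Tagln and Myh11 had 30.4 CPM (23.7 to 38.8, in the 3 control mice with enough cells) and the cluster led by Rgs5 had 3.59 CPM (0 to 8.55). Ccn2 had the opposite order in the same endothelial-like clusters, with 143 CPM in the Fabp4 cluster and 27.5 CPM in the Ptprb cluster.

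Ccn4 was an osteoblast gene. It stood at 530 ± 56.8 CPM in OB-like cells, above all other types without overlap, then at 266 ± 63.5 in Proliferating preOB-like, 258 ± 62.4 in preOB-like, 215 ± 89.2 in Lepr+ OP-like and 160 ± 47.2 in Sca1+ MSC-like cells. A gap parted these from hypertrophic GPC-like (56.4 ± 3.26), GPC-like (52.0 ± 2.69) and Lepr+ MSC-like cells (47.9 ± 13.6). These last 3 overlapped with megakaryocyte-like cells (43.7 ± 33.1, 14.2 to 90.4 CPM), and control erythroid-like cells had 6.76 to 32.7 CPM. The OB-like cluster led by Ptprz1 and Pdpn had the highest mean, 763 CPM (685 to 840), where the other OB-like clusters had means of 447 to 649 CPM.

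Ccn5 ran the other way along the osteogenic populations. It was highest in Lepr+ MSC-like cells (195 ± 49.4 CPM), followed with overlap by Lepr+ OP-like (91.7 ± 39.7), preOB-like (78.7 ± 57.2), Sca1+ MSC-like (66.0 ± 24.4) and Proliferating preOB-like cells (51.0 ± 24.3). All other types lay at or below a mean of 5.64 CPM. In OB-like cells the mean was 0.534 CPM (0.286 to 0.838), no higher than in erythroid-like cells (0.218 to 1.47 CPM), which should lack the gene, so the level in OB-like cells was at background. Ccn6, for reference, was a cartilage gene at 84.1 ± 32.4 CPM in GPC-like and 78.1 ± 23.9 CPM in hypertrophic GPC-like cells and at most 2.28 CPM elsewhere.

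**Figure D1:**
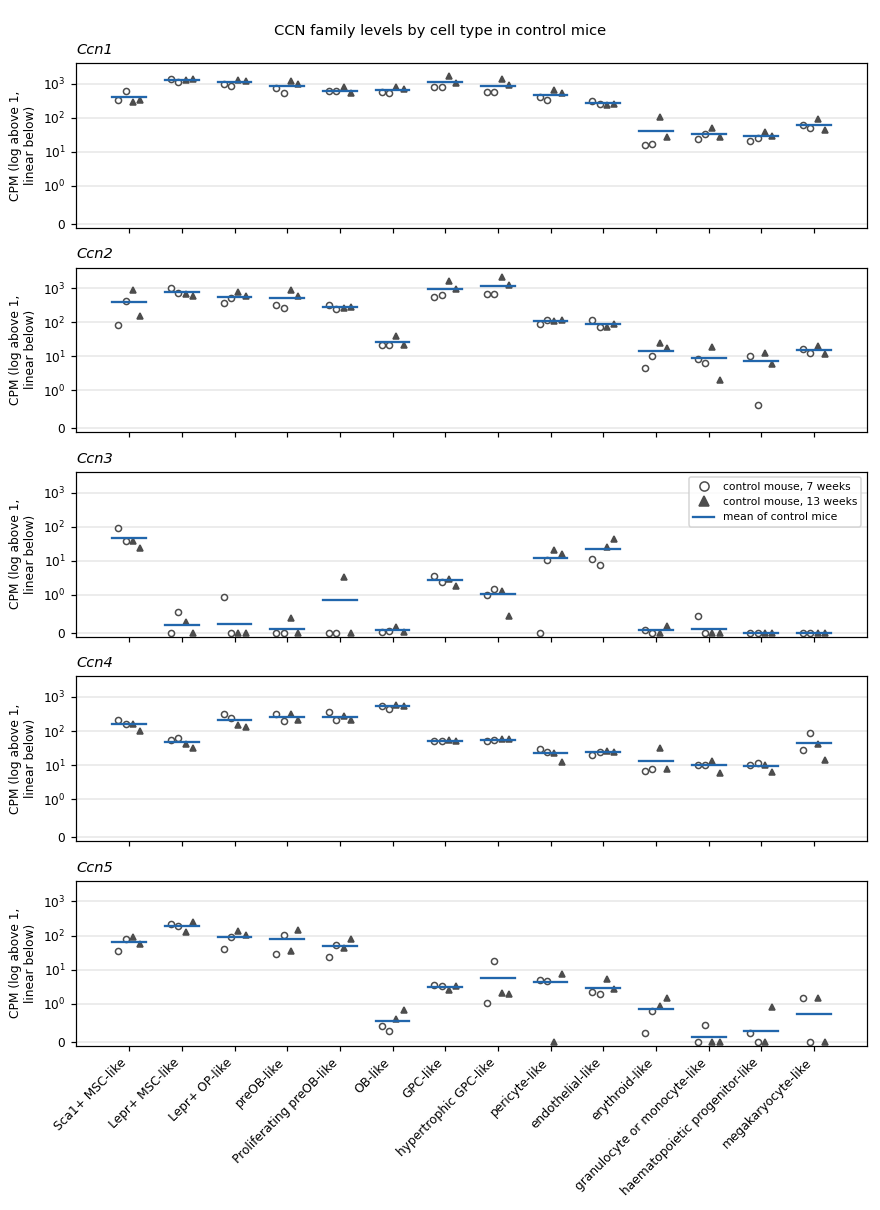
Level of each CCN member in the 4 control mice (points) by cell type, in TMM-normalised CPM on a log axis. Ccn4 is highest in OB-like cells and Ccn5 in Lepr+ MSC-like cells, while Ccn3 exceeds a mean of 10 CPM only in Sca1+ MSC-like, endothelial-like and pericyte-like cells.

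The main question of the design was which genes differ between mutant and control bones. In edgeR's quasi-likelihood test over both ages, 2 of 54 member and cell type pairs passed an adjusted p of 0.05, and both were Ccn5. 18 of the 54 had an unadjusted p under 0.05, as did 5.76% over all genes and types, and DESeq2 called 6, against 0.471% over all genes and types. Ccn5 was higher in the mutants' Lepr+ MSC-like cells and in their Lepr+ OP-like cells. EdgeR called 0.283% over all genes and types together. Benjamini-Hochberg adjustment covered every gene tested in that population. The members were chosen with earlier results of these data known. The paper lists Ccn1, Ccn2 and Ccn5 among the genes upregulated in mutant cells of these same libraries. The member and cell type pairs also share the same mice and are not independent. Member counts set beside shares over all genes, here and below, are therefore descriptions and not a test of the family. Counts of pairs and statements that groups did not overlap, here and below, describe these mice. Their shares over all genes were not counted, and their shares over all marker and gene lists are not given.

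In Lepr+ MSC-like cells, the controls of 7 weeks had 212.6 CPM (replicate 1) and 189.6 CPM (replicate 2) of Ccn5, and the mutants of that age 484.1 and 381.3 CPM. At 13 weeks the controls had 130.0 and 247.6 CPM and the mutants 468.5 and 594.2 CPM. Every mutant therefore exceeded every control. The difference was 1.30 on the log2 scale (SE 0.199, 2.46-fold) with an adjusted p of 0.0205. It was the only one of the 4 members tested in these cells to be called, where 0.164% of all genes were called. The mean log2 ratio of mutant to control within a replicate number was 1.51 in the deeper replicate 1 libraries and 1.13 in the replicate 2 libraries. The call was lost without the replicate 1 or replicate 2 control of 7 weeks (adjusted p = 0.0605 and 0.111), the replicate 1 mutant of 7 weeks (0.0551) or the replicate 2 mutant of 13 weeks (0.0751), with differences of 1.10 to 1.57 over all 8 such fits.

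Lepr+ OP-like cells showed the same direction. Ccn5 stood at 39.8 and 88.2 CPM in controls and 139.7 and 218.3 CPM in mutants at 7 weeks, and at 135.1 and 103.7 CPM in controls and 241.6 and 395.4 CPM in mutants at 13 weeks. The lowest mutant was above the highest control. The difference was 1.47 (SE 0.232, 2.77-fold, adjusted p = 0.00473), 1 of 4 members was called against 0.732% of all genes, and the call held without any single mouse (adjusted p = 0.000914 to 0.0270). Within replicate 1 and replicate 2 the mean log2 ratios were 1.31 and 1.61. On cells clustered without integration the difference was 1.30 and the adjusted p 0.116. The summed levels of OB markers and of immediate-early genes in Lepr+ OP-like cells were higher in the mutant in 4 of 4 pairs as well. Their part in the Lepr+ OP-like results for Ccn5, Ccn2 and Ccn1 was not tested.

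The share of cells with a Ccn5 UMI moved with the level. After every cell was thinned to 2000 UMIs, 27.0% (19.5 to 32.1%) of control and 50.8% (46.7 to 55.5%) of mutant Lepr+ MSC-like cells had at least 1, against 0.223% (0.0369 to 0.598%) of control erythroid-like cells. Without thinning the means were 48.5% and 71.5%. Thinning left out 48 of 2025 control and 90 of 1874 mutant cells with fewer UMIs. In Lepr+ OP-like cells the thinned shares were 13.8% (7.23 to 19.3%) and 28.8% (18.2 to 40.8%), and without thinning they were 29.1% and 45.6%. The median depth of these cells was 4104 to 8676 UMIs in control and 3535 to 7300 UMIs in mutant Lepr+ MSC-like cells, and 5435 to 35910 UMIs in control erythroid-like cells.

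In preOB-like cells the replicate numbers mattered. Ccn5 stood at 29.7 and 101.0 CPM in controls and 89.2 and 240.8 CPM in mutants at 7 weeks, and at 34.7 and 149.3 CPM against 82.4 and 216.0 CPM at 13 weeks. Replicate 2 mice were above replicate 1 mice in all 4 groups, so the genotypes overlapped although the mutant was higher in 4 of 4 pairs. The difference of 1.05 (SE 0.457) had an adjusted p of 0.518, and edgeR called 0 of 4 members in these cells (0.64% of all genes). An unadjusted p under 0.05 was found for 3 of them (8.87% of all genes), and DESeq2 called 1 (0.66% of all genes). With the pair of mice as a replicate block the Ccn5 difference was 1.12 and its adjusted p 6.68e-06. Without the block it ran from 0.61 without the replicate 2 mutant of 7 weeks to 1.72 without the replicate 2 control of 13 weeks. It was also below 0.70 without the replicate 1 control (0.68) or the replicate 2 mutant (0.63) of 13 weeks, and 1.59 without the replicate 2 control of 7 weeks, and no such fit gave a call. The 13 OB markers in preOB-like cells summed to 7420 and 5504 CPM in controls and 20541 and 10581 CPM in mutants at 7 weeks, and to 11732 and 6191 CPM against 24169 and 7951 CPM at 13 weeks. They were thus higher in the mutant in 4 of 4 pairs, and their part in the preOB-like results for Ccn5, Ccn2 and Ccn1 was not tested.

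In OB-like cells Ccn5 was nearly absent. They had 0.422, 0.286, 0.591 and 0.838 CPM in controls and 0.965, 1.17, 0.993 and 1.61 CPM in mutants. The genotypes did not overlap, but both were at the level of erythroid-like cells. The difference was 1.21 (SE 0.254, adjusted p = 0.0536, and 0.0103 with the replicate block). The small Sca1+ MSC-like population had 35.8 and 78.4 CPM in controls and 53.9 and 138.6 CPM in mutants at 7 weeks, and 91.8 and 58.2 CPM against 195.7 and 658.7 CPM at 13 weeks. That difference was 1.67 (SE 0.475, adjusted p = 0.251), where 0.0588% of all genes were called. In Proliferating preOB-like cells, 1 mutant had 2.44 CPM and the other 2 had 247.0 and 255.3 CPM, and the difference of 1.47 (SE 0.668) had an adjusted p of 0.783, where 0.0257% of all genes were called. It ran from -0.93 without the replicate 2 mutant of 13 weeks to 2.38 without the replicate 1 mutant of that age, which alone gave a call (adjusted p = 0.000824).

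The effect on Ccn5 was not shown to be particular to a cell type or an age. Its difference in Lepr+ OP-like cells exceeded that in Lepr+ MSC-like cells by 0.17 (SE 0.252, adjusted p = 0.982), in a comparison that called 0.0264% of all genes. In GPC-like cells it was smaller by 0.55 (SE 0.285, adjusted p = 0.811), where 0.0711% of all genes were called. Over all members and types, edgeR called 0 of 56 such differences against 0.205% over all genes. An unadjusted p under 0.05 was found for 10, none of them for Ccn5. Most were a lower Ccn1 difference than in Lepr+ MSC-like cells. The share over all genes at that unadjusted threshold was not counted. DESeq2 was not run on these differences between types. At single ages the Ccn5 difference in Lepr+ MSC-like cells was 1.10 (SE 0.281, adjusted p = 0.690) at 7 weeks and 1.49 (SE 0.282, adjusted p = 0.206) at 13 weeks, where 0.00864% of all genes were called at each age. In Lepr+ OP-like cells it was 1.51 (SE 0.331, adjusted p = 0.106) and 1.42 (SE 0.324, adjusted p = 0.139), where 0.169% and 0.0939% of all genes were called. Without the replicate block, no member was called by edgeR at 1 age in any type. Among the 54 pairs, 11 had an unadjusted p under 0.05 and DESeq2 called 1 at 7 weeks, against 3.54% and 0.103% over all genes and types. The counts at 13 weeks were 15 and 3, against 4.49% and 0.18%. Over all genes and types edgeR called 0.0391% at 7 weeks and 0.0511% at 13 weeks. It called the difference of the effect between the ages for 0 of 54 pairs, where 5 had an unadjusted p under 0.05 (2.13% over all genes and types), and for 0.00226% over all genes. DESeq2 was not run on that difference.

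**Figure D2:**
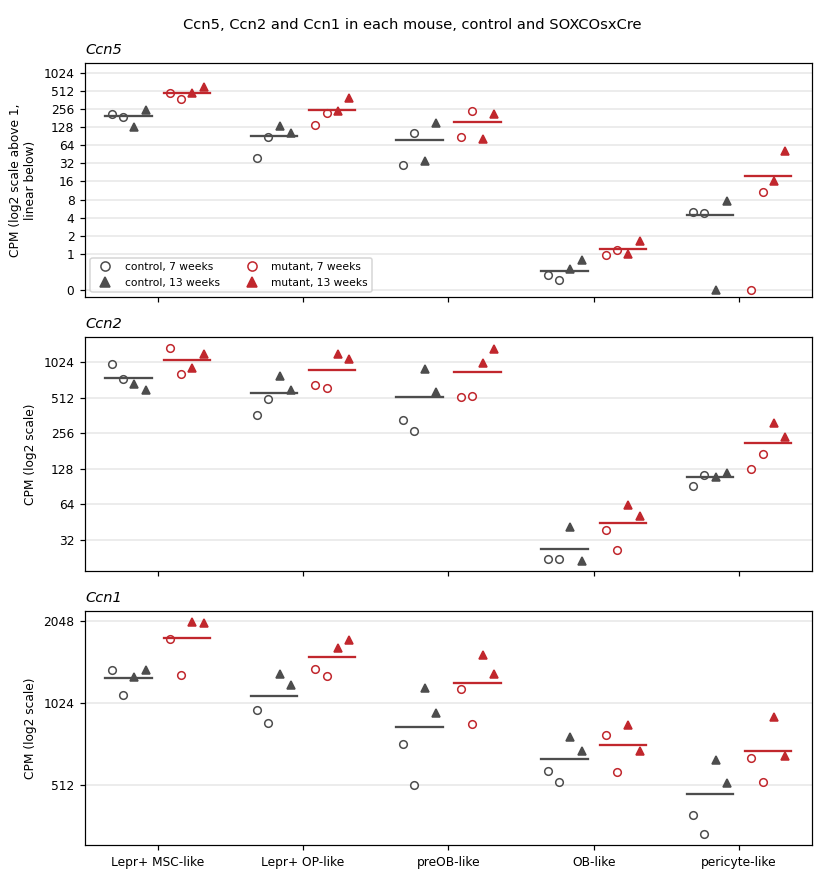
Ccn5, Ccn2 and Ccn1 in each mouse in 5 cell types, in TMM-normalised CPM on a log axis, with controls and mutants of 7 and 13 weeks as separate points. For Ccn5, all 4 mutants lie above all 4 controls in Lepr+ MSC-like cells, in the Lepr+ OP-like population and, at background level, in OB-like cells.

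In edgeR's test of all 8 mice without the replicate block, Ccn2 was not called in any cell type. DESeq2 called it in Lepr+ OP-like (adjusted p = 0.0191), preOB-like (0.0231) and OB-like cells (0.00600). Its mutant level exceeded the control level of the same age and replicate number in 4 of 4 pairs in Lepr+ MSC-like, pericyte-like, OB-like, preOB-like and Lepr+ OP-like cells. These types come from the same 8 mice, and the share of all genes with 4 of 4 pairs was not counted. Pericyte-like cells came nearest to a call. Their controls had 91.1 and 112.4 CPM at 7 weeks and 109.3 and 118.8 CPM at 13 weeks, and their mutants 127.7 and 171.0 CPM and then 312.4 and 238.3 CPM. No mutant overlapped the controls. The difference was 0.91 (SE 0.191, 1.88-fold, adjusted p = 0.0514), and 0.00709 with the replicate block. The call was reached without the replicate 1 control or mutant of 7 weeks (adjusted p = 0.0338 and 0.0470) and without the replicate 2 control or mutant of 13 weeks (0.0288 and 0.0490), and not in the other 4 fits without 1 mouse. With a mitochondrial limit of 5% the difference was 1.45 (adjusted p = 0.0653). Of the 4 members tested in pericyte-like cells, edgeR called 0 (0.138% of all genes), 2 had an unadjusted p under 0.05 (6.03% of all genes) and DESeq2 called 0 (0.0968% of all genes). The cluster led by Rgs5 had 116 CPM (84.8 to 144.8) in controls and 263 CPM (159.7 to 440.9) in mutants. The cluster led by Acta2 had 72.1 CPM (25.9 to 110.3) in the 3 controls with enough cells and 116 CPM (57.5 to 190.9) in mutants, with overlap. Beside this result, the summed level of the 13 OB markers in pericyte-like cells was 2076 to 3466 CPM in controls and 3895 to 4748 CPM in mutants, without overlap, and their part in the result was not tested.

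In Lepr+ OP-like cells, Ccn2 stood at 361.7 and 497.5 CPM in controls and 659.5 and 614.5 CPM in mutants at 7 weeks, and at 777.1 and 596.3 CPM against 1186 and 1076 CPM at 13 weeks. The genotypes were apart within each age and overlapped across ages. The difference was 0.65 (SE 0.163) with an adjusted p of 0.0950, and 0.00193 with the replicate block. PreOB-like cells had 327.7 and 268.0 CPM against 522.7 and 525.0 CPM at 7 weeks and 898.2 and 574.1 CPM against 1003 and 1317 CPM at 13 weeks. Their difference was 0.73 (SE 0.187, adjusted p = 0.120, and 0.00523 with the block). The summed level of 16 immediate-early genes in preOB-like cells also did not overlap between genotypes, at 8859 to 12918 CPM in controls and 13036 to 14379 CPM in mutants, and its part in the Ccn2 result was not tested.

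In Lepr+ MSC-like cells Ccn2 had 980.4 and 739.6 CPM in controls and 1355 and 809.2 CPM in mutants at 7 weeks, and 665.5 and 598.9 CPM against 912.8 and 1190 CPM at 13 weeks. The groups overlapped at 7 weeks, and the difference of 0.53 (SE 0.189) had an adjusted p of 0.535 and was 0.32 without the replicate 1 mutant of 7 weeks. OB-like cells had 21.9, 22.2, 40.7 and 21.4 CPM in controls and 39.1, 26.4, 63.2 and 50.5 CPM in mutants. In control erythroid-like cells, as a background, Ccn2 had 4.44 to 25.2 CPM, a range that held 3 of the 4 OB-like controls and none of the mutants. In OB-like cells the difference was 0.72 (SE 0.198) with an adjusted p of 0.131, which became 0.00590 with the replicate block and 0.0278 (difference 0.99) without the replicate 1 control of 13 weeks, the control with 40.7 CPM. Of 4 members in OB-like cells edgeR called 0 (1.37% of all genes), 2 had an unadjusted p under 0.05 (11.5% of all genes) and DESeq2 called 2 (2.7% of all genes). PreOB markers in OB-like cells summed to 611 to 805 CPM in controls and 843 to 1336 CPM in mutants, without overlap, and their part in the OB-like results was not tested. The OB-like cluster with the largest number of cells, led by Ifitm5 and Bglap, had 31.4 CPM (23.2 to 45.4) of Ccn2 in controls and 70.7 CPM (42.1 to 108.6) in mutants.

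In cartilage, where Ccn2 is highest, the genotypes differed by 0.02 (SE 0.205, adjusted p = 1) in GPC-like and 0.18 (SE 0.183, adjusted p = 1) in hypertrophic GPC-like cells. EdgeR called 0 members in either type and 0% of all genes. 1 of 5 members in GPC-like cells and 0 of 5 in hypertrophic GPC-like cells had an unadjusted p under 0.05. Of all genes, 214 of 11571 and 366 of 11587 did. DESeq2 called no member in either type. The Ccn2 difference in GPC-like cells was 0.51 below that in Lepr+ MSC-like cells (SE 0.184, adjusted p = 0.578), so the cell types were not shown to differ.

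Ccn1 had positive differences in the 5 populations in which Ccn2 was higher in 4 of 4 pairs, each with a smaller estimate than that of Ccn2. That gap was not tested, and in Sca1+ MSC-like cells the signs were opposite (0.42 for Ccn1 and -0.22 for Ccn2, adjusted p = 0.767 and 0.950). In Lepr+ OP-like cells it stood at 968.3 and 870.0 CPM in controls and 1375 and 1291 CPM in mutants at 7 weeks, and at 1319 and 1200 CPM against 1633 and 1750 CPM at 13 weeks. The difference was 0.48 (SE 0.153) with an adjusted p of 0.245, and 0.0181 with the replicate block. PreOB-like cells had 727.7 and 515.7 CPM against 1162 and 863.0 CPM, and then 1168 and 943.8 CPM against 1549 and 1311 CPM. Their difference was 0.57 (SE 0.187, adjusted p = 0.295, and 0.0195 with the block). In Lepr+ MSC-like and pericyte-like cells the differences were 0.47 (SE 0.158, adjusted p = 0.511) and 0.56 (SE 0.181, adjusted p = 0.359). Both had 4 of 4 pairs higher in the mutant and neither was called with the block. OB-like cells had 529.1 to 771.4 CPM in controls and 571.7 to 850.5 CPM in mutants, a difference of 0.19 (SE 0.137, adjusted p = 0.718). It was 0.06 and 0.10 without the replicate 1 mutant of 7 or of 13 weeks and 0.29 without the replicate 2 mutant of 7 weeks.

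With the replicate block, edgeR called 3 of 4 members in Lepr+ OP-like cells and 3 of 4 in preOB-like cells (Ccn1, Ccn2 and Ccn5 in both), 2 of 4 in OB-like cells (Ccn2 and Ccn5), 1 of 4 in pericyte-like cells (Ccn2) and 1 of 4 in Lepr+ MSC-like cells (Ccn5). The same fits called 3.21%, 3.07%, 8.15%, 0.595% and 0.751% of all genes. They have 2 residual degrees of freedom, against 4 without the block, and these populations were picked for it by correlations in the same data.

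The block also turned single-age differences into calls in these populations. Ccn5 in Lepr+ MSC-like cells then had an adjusted p of 0.0377 at 7 weeks and 0.00845 at 13 weeks, where 0.181% and 0.13% of all genes were called. In Lepr+ OP-like cells the values were 0.000158 and 0.000457 (1.08% and 1.16% of all genes), and Ccn2 there was called at 13 weeks (0.0272). For preOB-like Ccn5 they were 0.000103 and 0.0167 (1.37% and 1.42%). OB-like cells had Ccn5 called at 7 weeks (0.0477, 1.7% of all genes) and Ccn2 at 13 weeks (0.0226, 2.5%), and pericyte-like cells Ccn2 at 13 weeks (0.00989, 0.29%). In erythroid-like cells, where the replicate 1 control of 13 weeks stood apart in Ccn1 and Ccn4, the blocked fit called Ccn4 at 13 weeks (-2.73, adjusted p = 0.0157, 1.05% of all genes). It also called the difference of the effect between the ages there for Ccn1 (-2.62, adjusted p = 0.0362) and Ccn4 (-3.55, adjusted p = 0.0140), with 1.16% of all genes.

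Over both ages, neither fit called Ccn4 or Ccn3 between genotypes. OB-like cells, where Ccn4 is highest, had 558.3, 447.2, 573.5 and 541.9 CPM in controls and 592.6, 502.8, 558.4 and 498.0 CPM in mutants, and the difference was 0.02 (SE 0.119, adjusted p = 0.984). It was -0.23 (SE 0.162, adjusted p = 0.848) in Lepr+ OP-like and -0.23 (SE 0.142, adjusted p = 0.849) in Lepr+ MSC-like cells. Ccn3 in endothelial-like cells had 11.6, 7.34, 26.0 and 43.5 CPM in controls and 3.30, 18.7, 33.6 and 25.2 CPM in mutants. These groups overlapped widely, with a difference of 0.00 (SE 0.354, adjusted p = 1).

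**Figure D3:**
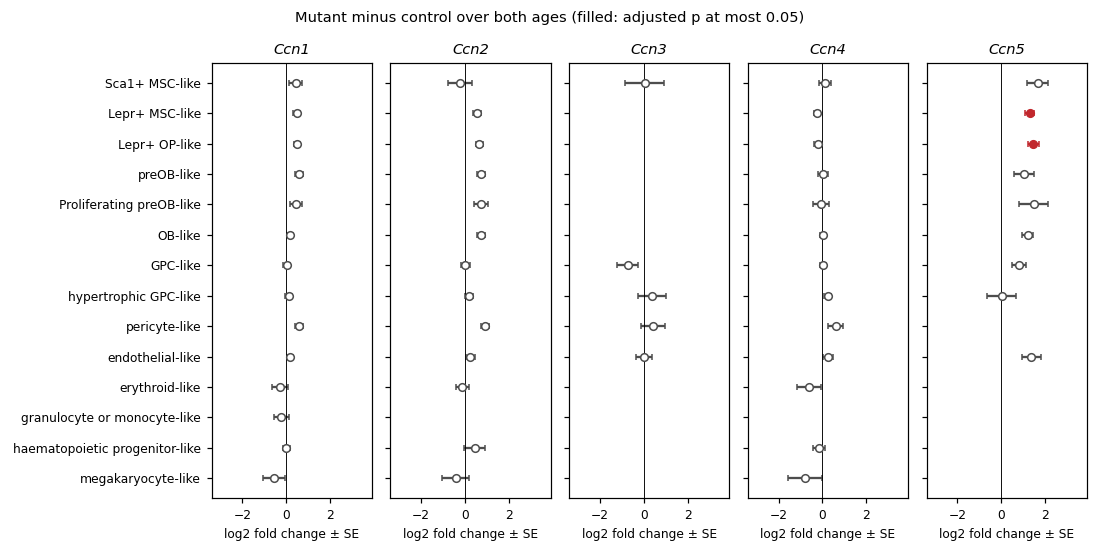
Log2 difference of mutant minus control over both ages for each member and cell type, with bars of 1 SE from the edgeR fit without the replicate block and the called pairs filled in red. The 2 called pairs are Ccn5 in Lepr+ OP-like (1.47) and Lepr+ MSC-like cells (1.30).

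Genes around the family were read from lists. Of 10 CCN receptors and coreceptors (integrin subunits, Sdc4, Lrp1, Lrp6 and Notch1), edgeR called 0 between genotypes in any of the 4 osteogenic populations. Their median differences were -0.04 in Lepr+ MSC-like cells, 0.01 in the Lepr+ OP-like population, -0.01 in preOB-like cells and -0.01 in the OB-like population, and later lists keep this order. 1, 2, 2 and 3 of them had an unadjusted p under 0.05, and DESeq2 called 1, in OB-like cells. Over all genes, 794 of 11579, 882 of 10653, 928 of 10462 and 1658 of 14458 had such a p in this order. DESeq2 called 2.7% of all genes in OB-like cells. These values over all genes also stand beside the later lists. The other YAP and TAZ targets, 17 of 20 tested in Lepr+ MSC-like cells, had a median of 0.01 there with 9 positive. The medians were 0.04 in Lepr+ OP-like (10 of 17 positive), 0.02 in preOB-like (8 of 16) and -0.04 in OB-like cells (5 of 17). None of these targets was called by edgeR, and DESeq2 called 1 in OB-like cells. An unadjusted p under 0.05 was found for 0, 4, 4 and 3, beside the values over all genes given above. The median over all genes tested in these 4 populations lay between -0.01 and 0.00.

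TGF-beta targets (7 tested in each type) had medians of 0.11, 0.08, 0.03 and -0.09 in this order, with 0 called by edgeR, 2, 3, 3 and 0 at an unadjusted p under 0.05 and 0 called by DESeq2. Wnt targets had medians of 0.11, 0.27 and -0.15 over 7 genes and -0.02 over 9 genes in OB-like cells, with 2, 2, 1 and 4 at an unadjusted p under 0.05 and 1 called by DESeq2, in OB-like cells. Notum, a secreted Wnt inhibitor and feedback target, was the only one called by edgeR. It fell by 0.70 in OB-like cells (SE 0.142, adjusted p = 0.0472), from 5.63 ± 1.08 to 3.46 ± 0.626 CPM (SD, n = 4 each). Immediate-early genes were positive for 15, 15, 14 and 12 of 16 genes, with medians of 0.26, 0.32, 0.32 and 0.10. EdgeR and DESeq2 called 0 of them, and 1, 7, 6 and 1 had an unadjusted p under 0.05. Of all genes, 794 of 11579, 882 of 10653, 928 of 10462 and 1658 of 14458 did. Ccn1 and Ccn2 are themselves known as rapidly induced genes. Heat shock genes had medians of 0.06, 0.19, 0.07 and -0.01 over 6 genes, with 0 called by edgeR or DESeq2 and 1, 1, 0 and 1 at an unadjusted p under 0.05.

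Among markers of other cell types, endothelial markers in Lepr+ MSC-like cells summed to 84.1 to 154.1 CPM in controls and 157.9 to 203.1 CPM in mutants, without overlap. Sca1+ MSC markers there were lower in the mutant in 4 of 4 pairs (223.8 to 338.3 CPM in controls and 171.7 to 227.4 CPM in mutants, with overlap), and immediate-early genes were higher in 4 of 4 pairs. The part of these lists in the Ccn5 result was not tested, and the share of all lists whose sums stood apart by genotype is not given. Osteoprogenitor markers in Lepr+ MSC-like cells overlapped between genotypes.

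More member and type pairs were called between ages than between genotypes, as was true over all genes and types (1.65% against 0.283%). Over both genotypes, 10 of 54 differed between 13 and 7 weeks in edgeR, against 1.65% over all genes and types, and 21 had an unadjusted p under 0.05, against 11.5% over all genes and types. In growth plate cartilage, Ccn1 and Ccn2 rose together. Hypertrophic GPC-like cells had 664.0, 676.4, 918.4 and 669.7 CPM of Ccn2 in the 4 mice of 7 weeks (2 controls, then 2 mutants) and 2058, 1231, 1777 and 1790 CPM in the 4 mice of 13 weeks. No mouse of 7 weeks reached a mouse of 13 weeks. The increase was 1.23 on the log2 scale (SE 0.185, 2.35-fold, adjusted p = 0.00264). Ccn1 in the same cells had 564.1, 568.5, 680.9 and 493.5 CPM and then 1395, 919.6, 1190 and 1377 CPM, an increase of 1.08 (SE 0.176, 2.11-fold, adjusted p = 0.00420). 6.65% of all genes were called in these cells, and both calls held without any single mouse.

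GPC-like cells had 555.6, 631.8, 805.4 and 459.5 CPM of Ccn2 at 7 weeks and 1596, 935.9, 1259 and 1168 CPM at 13 weeks. The increase was 1.01 (SE 0.207, 2.02-fold, adjusted p = 0.0384), and that of Ccn1 was 0.74 (SE 0.157, 1.67-fold, adjusted p = 0.0427), where 2.27% of all genes were called. The ages did not overlap for either gene. Both calls were lost without either control of 7 weeks, the replicate 2 mutant of 7 weeks, the replicate 1 control or the replicate 2 mutant of 13 weeks, and that of Ccn1 also without the replicate 1 mutant of 7 weeks (adjusted p of up to 0.152 for Ccn1 and 0.143 for Ccn2). Ccn6 rose by 0.89 (adjusted p = 0.00870) in GPC-like and 0.79 (adjusted p = 0.0127) in hypertrophic GPC-like cells.

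Several lists moved with age in the same cells. Immediate-early genes were positive for 16 of 16 genes in both cartilage types, with 1 called in GPC-like and 7 in hypertrophic GPC-like cells, where their sums were 9748 to 10175 CPM at 7 weeks and 13065 to 17196 CPM at 13 weeks. The YAP and TAZ targets summed to 466 to 699 CPM and then 757 to 1320 CPM in GPC-like cells and to 616 to 745 CPM and then 792 to 1086 CPM in hypertrophic GPC-like cells. The 8 hypertrophic markers themselves summed to 25903 to 33401 CPM at 7 weeks and 17931 to 22974 CPM at 13 weeks. None of these ranges overlapped between ages, and their part in the rise of Ccn1 and Ccn2 was not tested.

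In the osteogenic populations, the age differences called were a higher Ccn2 in 2 types and a lower Ccn4 in 2 types at 13 weeks. Ccn2 in Lepr+ MSC-like cells (-0.24, adjusted p = 0.848) and Ccn4 in OB-like (0.05, adjusted p = 0.909) and preOB-like cells (-0.02, adjusted p = 0.982) were not called. Ccn2 in preOB-like cells, with the values given above, rose by 1.23 (SE 0.189, 2.34-fold, adjusted p = 0.00264), where 2.26% of all genes were called. PreOB markers summed to 13628 to 20987 CPM in preOB-like cells at 7 weeks and 22169 to 38607 CPM at 13 weeks. The makeup of preOB-like cells moved with age as well. At resolution 1.5, a preOB-like cluster led by Col3a1, Vcan and Ptn had 140, 178, 164 and 185 cells at 7 weeks. It had 46, 39, 35 and 29 cells at 13 weeks. A preOB-like cluster led by Mmp13, Spp1 and Tnc had 181, 175, 182 and 311 cells and then 240, 241, 260 and 285. The part of marker levels and makeup in the Ccn2 rise was not tested. On clusters made without integration the Ccn2 change was 0.31 (adjusted p = 0.876). In Lepr+ OP-like cells Ccn2 rose by 0.75 (SE 0.163, 1.69-fold, adjusted p = 0.0287), a call that held only without the replicate 2 control of 7 weeks or the replicate 2 control of 13 weeks (adjusted p = 0.0181 to 0.108 over the 8 fits). The ages overlapped, since a 13-week control had 596.3 CPM and a 7-week mutant 659.5 CPM. With a mitochondrial limit of 5% the change was 0.49 (adjusted p = 0.638).

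Ccn4 in Lepr+ OP-like cells went from 326.9, 246.4, 227.4 and 241.9 CPM at 7 weeks to 155.2, 132.8, 156.2 and 102.1 CPM at 13 weeks. Every older mouse was below every younger one. It fell by 0.93 (SE 0.163, adjusted p = 0.00838), where 1.37% of all genes were called, in all 8 fits without 1 mouse, but the change was -0.29 (adjusted p = 0.773) on clusters made without integration. In Lepr+ MSC-like cells it went from 55.2, 62.7, 55.8 and 58.0 CPM to 41.0, 32.6, 29.2 and 25.9 CPM and fell by 0.86 (SE 0.142, adjusted p = 0.0286), where 0.458% of all genes were called. All 8 values lay within the range of control megakaryocyte-like cells given above. That call was lost without the replicate 2 control or replicate 2 mutant of 7 weeks or the replicate 2 mutant of 13 weeks (adjusted p = 0.0852, 0.0560 and 0.162). Lepr+ MSC markers in Lepr+ OP-like cells summed to 7180 to 10275 CPM at 7 weeks and 11990 to 14639 CPM at 13 weeks, and osteoprogenitor markers in Lepr+ MSC-like cells to 7189 to 9882 CPM and then 5411 to 7065 CPM. Their part in the Ccn4 changes was not tested. OB-like cells, the main site of Ccn4, had 0 of 4 members called by age in edgeR, where 1.96% of all genes were called. An unadjusted p under 0.05 was found for 2 of these members and for 2044 of 14458 genes. DESeq2 was not run on ages.

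Ccn3 rose with age in the vascular types. Endothelial-like cells had 11.6, 7.34, 3.30 and 18.7 CPM at 7 weeks and 26.0, 43.5, 33.6 and 25.2 CPM at 13 weeks, an increase of 1.66 (SE 0.396, 3.17-fold, adjusted p = 0.0379) where 2.96% of all genes were called. Pericyte-like cells had 0, 10.6, 10.4 and 3.53 CPM and then 21.1, 15.4, 49.7 and 39.0 CPM, an increase of 2.00 (SE 0.477, 4.01-fold, adjusted p = 0.0308) where 1.54% were called. The pericyte-like sums rested on 47 to 215 cells and 200333 to 870730 UMIs per mouse, so the levels at 7 weeks stand for few Ccn3 UMIs. Positive pericyte-like cells had 1.29 to 2 Ccn3 UMIs in controls and 1 to 2.25 in mutants. The ages did not overlap in either type. The endothelial-like call was lost without either control of 7 weeks, the replicate 2 control of 13 weeks or either mutant of 13 weeks (adjusted p of up to 0.202), and the increase ran from 1.26 without the replicate 1 mutant of 7 weeks to 2.49 without the replicate 2 mutant of that age. The pericyte-like call was lost without the replicate 2 mutant of 7 weeks or the replicate 1 control or mutant of 13 weeks (adjusted p of up to 0.235), and the pericyte-like increase was 4.46 without the replicate 2 control of 7 weeks.

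The makeup of both vascular types moved with age as well. The endothelial-like cluster rich in Ccn3, led by Ptprb, Ly6c1 and Cldn5, made up 8.45 to 16.8% of endothelial-like cells at 7 weeks and 26.0 to 40.1% at 13 weeks. Within that cluster Ccn3 had a mean of 38.7 CPM (15.1 to 83.0) at 7 weeks and 73.6 CPM (37.9 to 125.8) at 13 weeks, and the ages overlapped. The pericyte-like cluster led by Acta2 made up 10.6 to 34.0% of its type at 7 weeks and 28.7 to 59.5% at 13 weeks, with 22.5 CPM of Ccn3 (0 to 38.8) in the 3 mice of 7 weeks that had enough cells and 63.3 CPM (23.7 to 107.4) in 4 mice of 13 weeks, and the ages overlapped. Sca1+ MSC markers in endothelial-like cells, a list that holds Ly6a, summed to 616 to 816 CPM and then 1335 to 2103 CPM. The 6 heat shock genes summed to 788 to 1140 CPM at 7 weeks and 1271 to 1971 CPM at 13 weeks in endothelial-like cells, with 6 of 6 positive and 2 called, and to 1599 to 2149 CPM and then 2223 to 2722 CPM in pericyte-like cells, with 5 of 6 positive and 0 called by edgeR (1 had an unadjusted p under 0.05). Of 16 immediate-early genes, 15 were positive and 2 called in pericyte-like cells (median 0.34). There, 7 had an unadjusted p under 0.05, as did 852 of all 7231 genes. In endothelial-like cells 13 were positive with 0 called (median 0.16). Of these genes 2 had an unadjusted p under 0.05 there, as did 1661 of all 10765 genes. The immediate-early sums overlapped between ages. The 5 megakaryocyte markers also stood apart by age, at 32.7 to 83.9 CPM and then 95.1 to 133.3 CPM in endothelial-like and 22.5 to 81.0 CPM and then 134.3 to 168.6 CPM in pericyte-like cells. The part of these lists in the Ccn3 changes was not tested, and the share of all lists whose sums stood apart by age is not given.

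**Figure D4:**
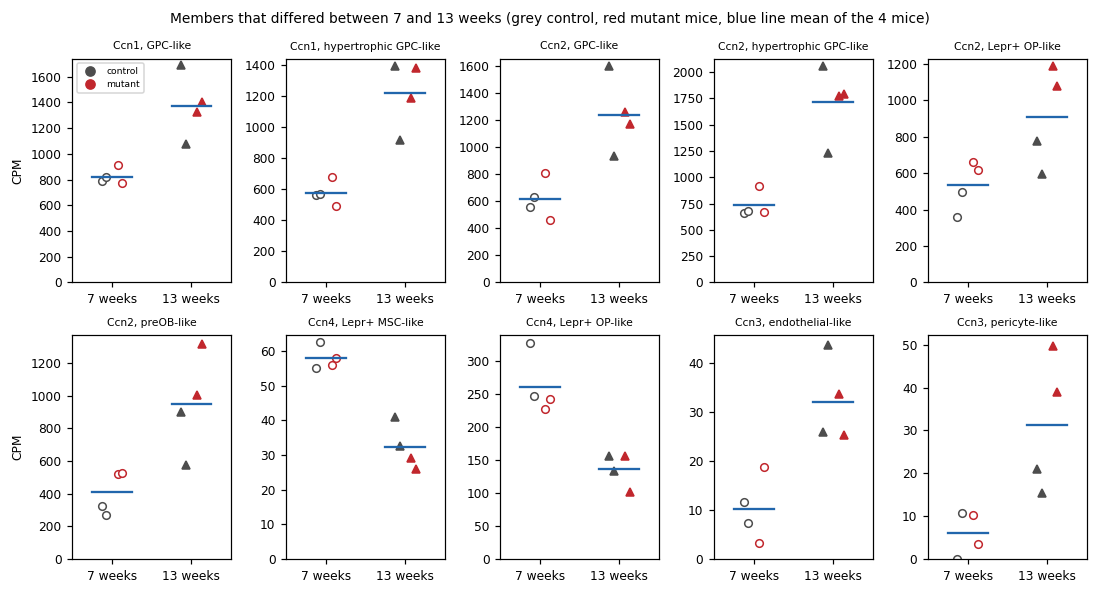
CPM (TMM-normalised) of 10 member and cell type pairs at 7 and 13 weeks, 1 point per mouse with controls and mutants marked. These are the 10 pairs called between ages, and the 4 mice of one age lie apart from the 4 of the other in all of them but Ccn2 in Lepr+ OP-like cells, where a 13-week control (596.3 CPM) lies below both 7-week mutants.

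The likeness of each member to other genes was measured over the 14 cell types, as Pearson's r of log2(mean control CPM + 1) among 10041 genes that reached 20 CPM in some type. It is a description of shared cell types in the same libraries, with no test. Closest to Ccn1 were Errfi1 (r = 0.976), Vasn (0.964) and Amotl2 (0.962), the last on the list of YAP and TAZ targets. Closest to Ccn2 were Fgfr3 (0.966), a receptor of growth plate chondrocytes, Chsy3 (0.949) and Plagl1 (0.948). Ccn3 was nearest to the mechanosensitive channel gene Piezo2 (0.961), then Efhd1 (0.939) and Sparcl1 (0.913).

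Ccn4 was nearest to the OB marker Cdo1 (0.953), to Creb3l1 (0.949), a transcription factor for collagen secretion in osteoblasts, and to Ust (0.949). The collagenase gene Mmp13 (0.965), which is on the osteoprogenitor marker list, the chemokine gene Ccl19 (0.959) and Fgf7 (0.957) were nearest to Ccn5. Among the members, Ccn1 and Ccn2 were most alike (r = 0.899) and Ccn3 and Ccn4 least (r = -0.02).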

How the data were processed

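Single-cell RNA from 8 bone libraries was captured with the 10x Genomics 3′ kit. The files deposited by the authors hold UMI counts for each gene in each barcode, not normalised, from Cell Ranger 6.1.2 with mm10 per the submitters' processing notes. Each mouse is 1 library and replicates were not pooled.

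Cells with 200 to 6000 genes and at most 10% mitochondrial UMIs were kept and called doublets were left out at 0.8% per 1000 barcodes. Libraries were integrated with Seurat 5.3.0 (reciprocal PCA, 2000 variable genes, 30 components) and clustered with leidenalg 0.10.2 (20 neighbours, resolution 1). Of 40 clusters, 2 stayed unnamed and 9 with a median UMI count under 33.3% of their libraries were kept out of their class. A cluster was named from marker lists by genes at least 2 times above the median of the other clusters. Members and lists were chosen with earlier results of these data known. UMIs were summed per mouse and type with at least 10 cells. The sums were tested with edgeR 4.0.16 (quasi-likelihood, TMM, filterByExpr, 1 mean per genotype and age group, 4 residual degrees of freedom, 3 for Proliferating preOB-like cells), in R 4.3.3, and with DESeq2 1.42.0 as an alternative. P-values are two-sided and the threshold was an adjusted p of 0.05. The scripts were tested on simulated data.

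The named genes were the members, Ccn6, Sox4, the 3 genes most like each member and list genes called over both ages in the 4 osteogenic types. The paper describes pairs of mutant and control sisters, but the labels do not say whether a shared replicate number marks such a pair. Within an age, mice that share a number deviated together (correlations of 0.10 to 0.40 at both ages) in 9 of 14 types, Lepr+ MSC-like, Lepr+ OP-like, preOB-like, OB-like and pericyte-like cells among them, so the block is given there. In the other 5 types the correlations were -0.13 to 0.60. The choice of types for the block thus rests on the same data that the blocked fits test. Replicate 1 libraries are deeper throughout, so depth and replicate number cannot be told apart. Without the block, each edgeR p-value weighs a difference against the spread among these 8 mice within genotype and age groups. That spread is estimated in part from all genes.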

Additional observations from a re-analysis of the deposited data

Results flagged for a closer look

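In 104 groups of 4 mice of a genotype, 1 member in 1 cell type each, the highest or lowest mouse was tested for its gap to the others with Dixon's test at its 95% critical value. 9 were flagged, where 5.2 are expected by chance at 1 in 20, and their causes were not tested. That expectation is only a guide, because each group joins 2 mice of 7 weeks and 2 of 13 weeks. The groups also share the same 8 mice and are not independent. Ccn2 in OB-like cells stood at 40.7 CPM in the replicate 1 control of 13 weeks against 21.4 to 22.2 CPM in the other controls. Ccn2 in endothelial-like cells was 170 CPM in the replicate 1 mutant of 7 weeks against 83.3 to 91.6 CPM. Ccn5 in hypertrophic GPC-like cells was 17.5 CPM in the replicate 2 control of 7 weeks (47 UMIs in 163 cells) against 1.02 to 2.03 CPM. In the small Sca1+ MSC-like population, Ccn1 was 611 CPM in the replicate 2 control of 7 weeks (78 UMIs in 35 cells) against 298 to 336 CPM, and Ccn3 was 209 CPM in the replicate 1 mutant of 13 weeks (120 cells) against 0 to 22.9 CPM. The other 4 flags fell in haematopoietic cells. The replicate 1 control of 13 weeks had 108 CPM of Ccn1 and 32.7 CPM of Ccn4 in 60 erythroid-like cells, against 16.1 to 26.6 and 6.76 to 7.71 CPM. The replicate 2 mutant of 13 weeks had 7.47 CPM of Ccn2 in erythroid-like cells against 10.97 to 11.6 CPM. Ccn1 in granulocyte or monocyte-like cells was 52.4 CPM in the replicate 1 mutant of 13 weeks (25 cells) against 21.6 to 26.7 CPM.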

How the results depend on the processing

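Ccn5 in Lepr+ MSC-like cells stayed called in 9 of 9 alternatives other than leaving out a mouse (1.29 to 1.37), and in Lepr+ OP-like cells in 7 of 8, the exception being clusters without integration (1.30). Leaving out 1 mouse gave 1.10 to 1.57 for Ccn5 in Lepr+ MSC-like cells, -0.93 to 2.38 for Ccn5 in Proliferating preOB-like cells and -0.046 to 0.11 for Ccn4 in OB-like cells. The sign turned in Proliferating preOB-like cells for Ccn1 with doublets left out at a doubled rate (-0.55) and for Ccn5 with a mitochondrial limit of 5% (-0.81). The number of members called rose from 1 to 2 in Lepr+ OP-like cells with DESeq2 and without a filter on low counts, to 3 with the replicate block, and was 0 without integration. From 0, it rose to 2 in OB-like cells with DESeq2, without the filter and with the block and to 1 at the doubled doublet rate. In preOB-like cells it rose to 1 with DESeq2, 2 without the filter and 3 with the block, in pericyte-like cells to 1 without the filter and with the block, and in Proliferating preOB-like and Sca1+ MSC-like cells to 1 without the filter. Leaving out 1 mouse gave 0 to 1 members in Lepr+ MSC-like, OB-like, pericyte-like and Proliferating preOB-like cells. Of the age calls, a mitochondrial limit of 5% ended those of Ccn1 and Ccn2 in GPC-like cells (adjusted p = 0.0503 and 0.0549), Ccn2 in Lepr+ OP-like (0.638) and Ccn4 in Lepr+ MSC-like cells (0.117), and the doubled doublet rate those of Ccn3 in endothelial-like and pericyte-like cells (0.0549 and 0.0800). Clusters without integration ended both Ccn4 calls (0.0835 for Lepr+ MSC-like, 0.773 for Lepr+ OP-like cells) and those of Ccn2 in the Lepr+ OP-like (0.0994) and the preOB-like population (0.876), and resolution 1.5 that of Ccn2 in Lepr+ OP-like cells (0.0846). Where these calls changed, the cause was not tested. Over both ages the replicate block changed no other call of the members followed over these alternatives, and the single-age calls it gave stand with the results. In levels, 205 of 210 comparisons of a member and type with an alternative stayed within 1 SD of the controls, whereas 66 of 70 shares of cells with a UMI moved by more when cells were not thinned. Depth limits Ccn3 in osteogenic and pericyte-like cells and Ccn5 outside the mesenchymal types, where sums rest on few UMIs.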
